A study of Mus musculus with 10 samples.

Results

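The genes described here govern whether a T cell stays in a tissue or leaves it. They are 10 genes chosen by name, Itgae, Cdh1, Itga1, Cd44, Cd69, S1pr1, Klf2, Zfp683, Ahr, and Tgfbr2, out of the 25814 genes of the deposited tables, and each of them was listed in all 10 libraries. RNA came from primary keratinocytes and from CD8+ T cells that were taken from spleen with CD8 microbeads. The methods of the study name tails of adult mice and newborn mice as sources of keratinocytes. They do not say which of these served for sequencing. The 5 groups of 2 libraries each were keratinocytes alone, keratinocytes co-cultured with pre-activated CD8+ T cells, CD8+ T cells after 1 d of activation with αCD3/CD28 Abs (activated T cells), T cells activated in the same way and then kept for 1 d in keratinocyte medium (T cells in medium), and T cells activated in the same way and then kept for 1 d together with keratinocytes (co-cultured T cells). By the labels T cells without keratinocytes were kept in keratinocyte medium, whereas the study describes a mix of serum-free keratinocyte medium and X-vivo medium for them as well as for the co-cultures. All T cells had received the same 1 d of stimulation. For the time in co-culture the labels of the T cells and the methods give 1 d and the design text of the series 1 h. Genotype is not stated in the labels of the samples, and the methods name wild type mice for the keratinocyte libraries and a C57/B6 background. Activated T cells were collected 1 d earlier than the other T cells, so that the end of stimulation, the change of medium and the additional day cannot be told apart. The question was whether 1 d with keratinocytes starts a skin residency program in CD8+ T cells.

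Resident memory T cells persist in epithelia without returning to the blood. Integrin αE (Itgae, CD103), which pairs with β7, binds E-cadherin (Cdh1) on epithelial cells, and its transcription is known to be driven by TGF-β through its receptor Tgfbr2. Exit from tissue follows a gradient of sphingosine 1-phosphate that T cells sense through S1pr1, a target gene of the transcription factor Klf2, whereas the CD69 protein removes S1pr1 from the cell surface. Zfp683 (Hobit) and Ahr are transcription factors that support resident cells in skin, Itga1 (CD49a) binds collagen IV, and Cd44 binds hyaluronan. In resident cells Itgae and Cd69 are therefore usually high, and S1pr1 and Klf2 low.

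For Klf2 and Tgfbr2, whose levels were higher in every library of T cells in medium than in both libraries of activated T cells, the 250 bases upstream of the RefSeq gene start are shown, since KLF factors bind GT boxes (CACCC, or GGGTG on the other strand). The sequences are from RefSeq (GRCm38.p6), Klf2 at chr8:72318812-72319061 on the plus strand and Tgfbr2 at chr9:116175364-116175613 on the minus strand, written 5′ to 3′ in the direction of the gene, and capitals mark the box.
Klf2: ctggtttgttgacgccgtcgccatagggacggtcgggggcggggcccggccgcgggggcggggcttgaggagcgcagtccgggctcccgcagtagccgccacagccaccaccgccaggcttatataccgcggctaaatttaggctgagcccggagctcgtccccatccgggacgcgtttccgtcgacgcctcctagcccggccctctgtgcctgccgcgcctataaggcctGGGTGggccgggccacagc
Tgfbr2: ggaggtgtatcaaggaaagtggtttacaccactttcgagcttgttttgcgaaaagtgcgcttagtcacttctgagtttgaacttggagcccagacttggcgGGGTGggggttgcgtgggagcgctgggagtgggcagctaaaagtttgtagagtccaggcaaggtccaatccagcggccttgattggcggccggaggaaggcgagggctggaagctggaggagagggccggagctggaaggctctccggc
Each of them held 1 such box, and of the other members with a RefSeq window Itga1 held 2 and Cd44 held 0. Among the 32851 windows of this length from RefSeq at least 1 is held by 52.0%, so that a match is common. The Tgfbr2 window also held 1 match to the core bound by AHR with ARNT (GCGTG or CACGC, in 28.2% of all windows), 1 to the SMAD box (CAGAC or GTCTG, 42.2%), and 1 to the NFAT core (GGAAA or TTTCC, 55.6%). The Klf2 window held 1 match to the NFAT core and no match to the GCGTG and CAGAC letters.

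The libraries held 12864931 to 18019609 exon reads, so that for an exon length of 1 kb 3 reads equal 0.158 to 0.212 RPKM (reads scaled to exon length and to all mapped reads of the library, as computed by the authors). Such floors cover counting error only. The labels were checked against markers. Cd8a was at 110 to 334 RPKM in the T cell libraries and at 0.118 to 1.16 RPKM in the keratinocyte libraries, and Krt14 at 7240 to 11836 RPKM in the keratinocyte libraries and at 0.350 to 61.6 RPKM in the T cell libraries. Yet Cd4, which marks the other main lineage of T cells, was found in all of them, with 11.4 and 43.5 RPKM for keratinocytes alone, 15.0 and 84.5 RPKM for co-cultured keratinocytes, 16.8 and 102 RPKM for activated T cells, 67.2 and 75.9 RPKM for T cells in medium and 64.6 and 62.0 RPKM for co-cultured T cells. Summed over 10 T cell markers the RPKM was 116 and 456 in keratinocytes alone, without added T cells, and 148 and 811 in co-cultured keratinocytes. Several members followed Cd4, and these values are given beside their results. T cell markers in a library cannot tell more cells from more RNA per cell. Of 5 marker genes of γδ T cells 4 have an exon length of 0 in the tables and no exon reads. Intron reads were counted on them. In keratinocyte libraries these were 0 to 8 for Trdc, 10 to 87 for Tcrg-C1, 7 to 131 for Tcrg-C2, and 1 to 20 for Tcrg-C4. In T cell libraries they were 22 to 103, 18 to 91, 28 to 127, and 5 to 26, so that only Trdc kept the cell types apart. The remaining marker, Cd163l1, had 0 to 57 exon reads in T cell libraries and at most 16 in keratinocyte libraries. Nothing in the labels says that the libraries of a group came from separate animals, and p-values measure only the spread between these libraries.

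**Figure D1:**
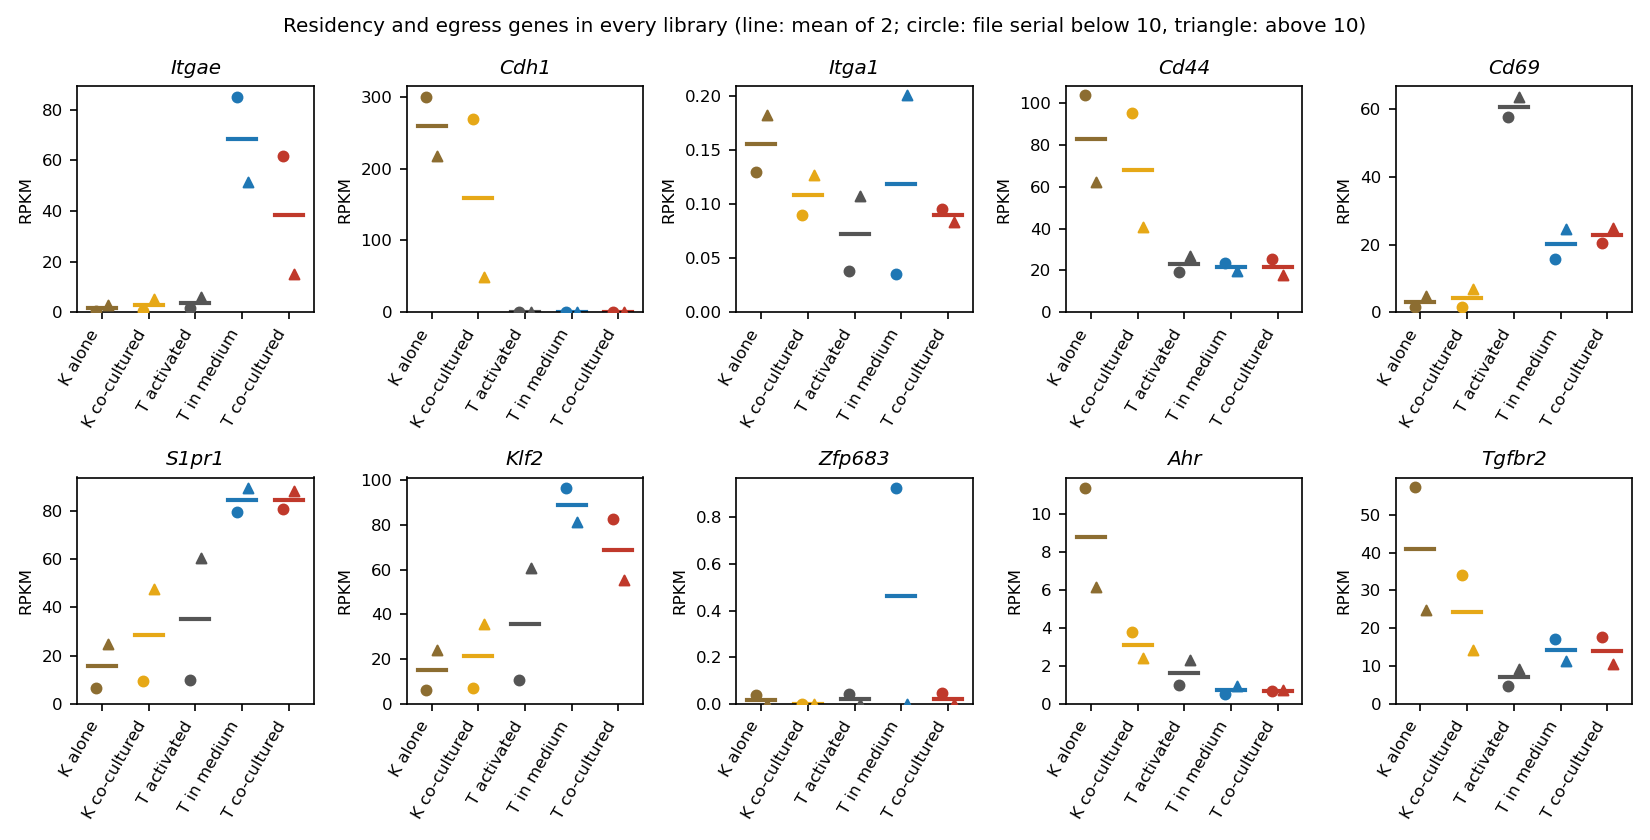
RPKM of each of the 10 genes in every library on linear axes that start at 0, with 5 groups of 2 libraries; the lines are the means, K stands for keratinocytes, and circles and triangles mark libraries whose deposited tables carry a serial number below or above 10. Itgae was at 15.3 to 85.2 RPKM in the T cells kept for a further day and at no more than 6.00 RPKM in all other libraries, whereas Cd69 was at 57.5 and 63.7 RPKM in activated T cells only and at no more than 25.01 RPKM elsewhere.

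The adhesion receptor Itgae showed the clearest change of all members. It was found at 1.57 and 6.00 RPKM (121 and 396 exon reads) in activated T cells, at 85.2 and 51.4 RPKM in T cells in medium, and at 61.7 and 15.3 RPKM in co-cultured T cells. Both groups kept for a further day lay above both libraries of activated T cells, and they overlapped with each other. Itgae rose 18.0-fold in mean RPKM in medium (68.3 ± 23.8 against 3.79 ± 3.13, SD, n = 2). This was a log2 fold change of 4.27 ± 0.82 (SE), which passed the test (edgeR adjusted p = 0.0270, quasi-likelihood test with Benjamini-Hochberg adjustment over all genes). In co-culture it rose 10.2-fold over activated T cells (38.5 ± 32.8 RPKM), with a log2 fold change of 3.46 ± 0.79 (SE) and passed the same test (edgeR adjusted p = 0.0329). This was 1 of 8 tested members in either comparison, where 6.54% (medium) and 10.3% (co-culture) of all 11863 genes tested were called at an adjusted p under 0.05. Of all genes 2.32% were called higher in medium and 4.22% lower, and in co-culture 4.59% and 5.72%. Without the first library of activated T cells the call was lost in both comparisons (adjusted p = 0.108 and 0.128), and it was also lost without either library of T cells in medium (adjusted p = 0.0730 and 0.0751). The direction was the same in all of them, and with a library left out the log2 fold change ran from 3.60 to 5.62 in medium and from 2.28 to 4.79 in co-culture.

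A further rise of Itgae with keratinocytes was not detected. Its log2 fold change in co-culture against medium was -0.82 ± 0.72 (SE), with a 95% interval of -2.49 to 0.85 and an edgeR adjusted p of 1.0. The interval contains a fall as well as a rise of less than 1 log2 unit. Matched by the serial number of the deposited tables, co-cultured T cells had 0.724 times the Itgae RPKM of T cells in medium in the libraries below 10, and 0.298 times in those above 10. Reads on introns, which come mainly from unspliced RNA, numbered 5 and 6 for Itgae in activated T cells, 80 and 173 in T cells in medium, and 69 and 111 in co-cultured T cells. Haspin, a kinase gene on the other strand, lies within Itgae and was at 1.23 to 8.15 RPKM over all libraries, and no strand setting of the counting is given in the sources used here.

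The partner of Itgae, Itgb7, was at 44.2 and 157 RPKM in activated T cells, at 320.5 and 274 RPKM in T cells in medium and at 271 and 181 RPKM in co-cultured T cells. The groups kept for a further day lay above activated T cells here as well, but the log2 fold changes of 1.67 ± 0.56 and 1.31 ± 0.56 (SE) did not pass the test (edgeR adjusted p = 0.113 and 0.165). In keratinocyte libraries Itgb7 was at 18.6 to 116 RPKM, with 1.38 to 1.63 times the Cd4 RPKM, and this ratio was 1.54 and 2.63 in activated T cells and 2.92 to 4.77 in the other T cells.

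E-cadherin, the ligand of the αEβ7 integrin, was a keratinocyte transcript. Keratinocytes alone held 299.8 and 218 RPKM of Cdh1, and co-cultured keratinocytes 269 and 49.4 RPKM. In T cells 4 and 0 exon reads were counted on Cdh1 after activation, 9 and 3 in medium, and 58 and 6 in co-culture, the latter corresponding to 0.860 and 0.0957 RPKM. Cdh1 was called lower in activated T cells than in keratinocytes alone (edgeR adjusted p = 0.000589), and it did not pass the filter on low counts in the T cell fits. The Cdh1 level of the co-cultured T cell libraries was 0.540% and 0.0602% of the mean of co-cultured keratinocytes, beside 0.623% and 0.170% for Krt14, a keratin of basal keratinocytes.

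Itga1 was close to the floor throughout. Each library had 6 to 38 reads over its 10967 bases of exons, or 0.0354 to 0.201 RPKM, and no T cell group stood apart. The log2 fold change of co-cultured T cells against T cells in medium was -0.40 ± 1.30 (SE), with a 95% interval of -3.40 to 2.60, so that a change of Itga1 was not detectable at this depth. Pelo and AC175538.1 lie within Itga1 on the same strand.

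Cd44, in contrast, was well measured and much alike in all T cells. Its level was 19.4 and 26.9 RPKM in activated T cells, 23.8 and 19.9 RPKM in medium, and 25.5 and 17.8 RPKM in co-culture. The 3 groups overlapped, and the log2 fold changes were between 0.02 and 0.07, with 95% intervals from -0.71 to 0.76 (co-culture against medium), from -0.69 to 0.79 (medium against activated) and from -0.67 to 0.81 (co-culture against activated). Keratinocytes held more Cd44, with 104 and 62.2 RPKM alone and 95.1 and 40.7 RPKM after co-culture, and activated T cells were lower than keratinocytes alone by a log2 fold change of -1.98 ± 0.43 (SE; edgeR adjusted p = 0.00823).

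Among the genes of egress, Cd69, an early activation antigen, was high only in activated T cells, with 57.5 and 63.7 RPKM. It was at 15.8 and 24.5 RPKM in T cells in medium and at 20.4 and 25.01 RPKM in co-cultured T cells. Neither later group overlapped with activated T cells, while they overlapped with each other. The log2 fold changes against activated T cells were -1.43 ± 0.38 and -1.21 ± 0.38 (SE), with 95% intervals of -2.31 to -0.55 and -2.09 to -0.34, but the edgeR adjusted p-values of 0.0652 and 0.0814 missed the threshold. With DESeq2 Cd69 was called lower in both comparisons (adjusted p = 0.0140 and 0.0398). Between co-culture and medium the log2 fold change was 0.22 ± 0.38 (SE), with an interval of -0.65 to 1.08.

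S1pr1, the receptor for egress, was high in T cells kept for a further day. Its level was 79.5 and 89.6 RPKM in medium, and co-culture gave 80.7 and 88.2 RPKM. Among activated T cells the libraries were far apart, with 10.04 and 60.3 RPKM, although both lay below all of the later ones. Because of this spread the log2 fold changes of 1.38 ± 0.71 and 1.43 ± 0.71 (SE) did not pass the test (edgeR adjusted p = 0.269 and 0.226). Between co-culture and medium the log2 fold change was 0.05 ± 0.69 (SE), with an interval of -1.55 to 1.64 and an edgeR adjusted p of 1.0.

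Klf2, the regulator of S1pr1, went a similar way. It was at 10.4 and 61.0 RPKM in activated T cells, at 96.8 and 81.4 RPKM in medium, and at 82.6 and 55.3 RPKM in co-culture. T cells in medium did not overlap with activated T cells, whereas co-cultured T cells did. The log2 fold changes were 1.42 ± 0.70 and 1.09 ± 0.69 (SE; edgeR adjusted p = 0.252 and 0.345), and -0.33 ± 0.69 (SE) between co-culture and medium, with an interval of -1.91 to 1.25. Reads on introns of Klf2 numbered 1 and 0 in activated T cells, 18 and 14 in medium, and 23 and 10 in co-culture.

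The levels of S1pr1 and Klf2 in activated T cells moved with Cd4. In the 4 keratinocyte libraries S1pr1 was at 0.565 to 0.642 times the RPKM of Cd4, over a range of S1pr1 levels from 6.61 to 47.7 RPKM, and in both libraries of activated T cells this ratio was 0.589 and 0.597. In T cells in medium and in co-culture it was 1.18 to 1.42. For Klf2 the ratio was 0.425 to 0.554 in keratinocyte libraries, 0.596 and 0.621 in activated T cells and 0.892 to 1.44 in the other T cells. For Itgae these ratios were 0.0422 to 0.0675, 0.0587 and 0.0935, and 0.247 to 1.27. Cd69 did not follow Cd4 in T cells, with 0.0813 to 0.134 in keratinocyte libraries, 0.622 and 3.42 in activated T cells and 0.236 to 0.404 in the later ones. Lyz2, a marker of myeloid cells, was at 0.445 to 0.631 times the Cd4 RPKM over all 10 libraries.

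**Figure D2:**
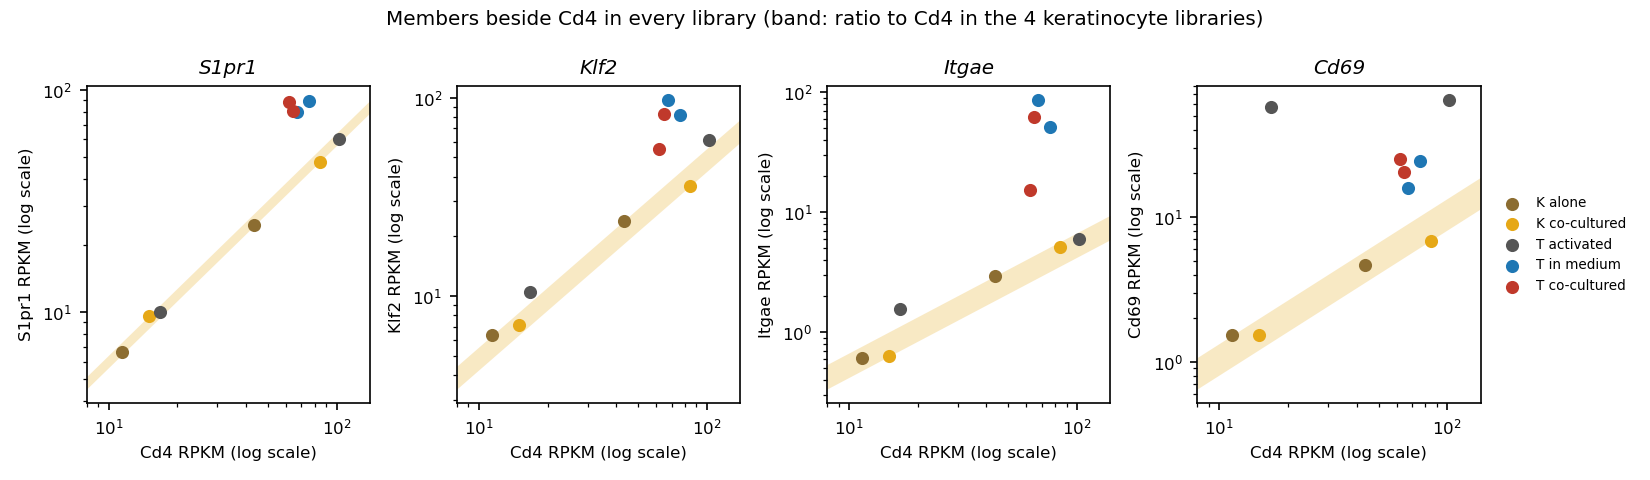
RPKM of S1pr1, Klf2, Itgae, and Cd69 (vertical, log scale) against the RPKM of Cd4 (horizontal, log scale) in each of the 10 libraries; the band spans the lowest to the highest ratio to Cd4 in the 4 keratinocyte libraries. Both libraries of activated T cells lie within the band for S1pr1 and just above it for Klf2, and 1 of them within it for Itgae, while the 4 libraries of later T cells lie above it in each panel.

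When the reads that go with Cd4, as estimated from the keratinocyte libraries, were subtracted from every library (an alternative chosen after the data had been seen), 0.701 and 3.46 RPKM of S1pr1 remained in activated T cells, 42.2 and 47.4 RPKM in medium and 44.9 and 53.8 RPKM in co-culture. S1pr1 was then called higher in both later groups than in activated T cells, with log2 fold changes of 4.53 and 4.72 (edgeR adjusted p = 0.0489 and 0.0324), and Itgae was called as well. Its log2 fold changes moved to 8.28 and 7.38, against 0.490 and 0 RPKM left in activated T cells. Klf2 was left at 3.44 and 18.5 RPKM in activated T cells and was not called. Since the S1pr1 ratio to Cd4 in activated T cells lay within that of keratinocyte libraries, little S1pr1 was bound to remain there. The calls and fold changes after this subtraction are therefore no independent support for a rise. Leaving out the second library of activated T cells, which had the higher Cd4 level, also gave calls for S1pr1 and Klf2, with log2 fold changes of 3.28 and 3.29 in medium (edgeR adjusted p = 0.0247 for both) and of 3.33 and 2.95 in co-culture (adjusted p = 0.0169 and 0.0178). Without the first library instead, the log2 fold changes of S1pr1 and Klf2 were 0.61 and 0.66 in medium (edgeR adjusted p = 0.503 and 0.467) and 0.65 and 0.32 in co-culture (adjusted p = 0.433 and 0.715), so that their size rested on which library of activated T cells was kept. Which cells hold the Cd4 RNA, and its part in the levels of S1pr1 and Klf2, was not tested beyond this subtraction.

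Among the regulators of the program, Zfp683 was hardly read at all. In T cells in medium 21 reads were counted in one library (0.924 RPKM) and 0 in the other, and in all other libraries 0 or 1 read. Co-cultured T cells had 1 and 0 reads, where 3 reads would correspond to 0.134 and 0.144 RPKM. Zfp683 did not pass the filter on low counts, so that a difference was not detectable at this depth.

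Ahr was a low transcript of T cells. It was at 0.965 and 2.33 RPKM in activated T cells, at 0.525 and 0.961 RPKM in medium, and at 0.651 and 0.713 RPKM in co-culture. Both later groups lay below activated T cells, in medium only barely (0.961 against 0.965 RPKM, from 92 and 90 exon reads). The log2 fold changes of -0.998 ± 0.66 and -1.09 ± 0.66 (SE) did not pass the test (edgeR adjusted p = 0.402 and 0.324). Between co-culture and medium the log2 fold change was -0.09 ± 0.66 (SE). In keratinocytes alone Ahr was higher than in activated T cells, with 11.4 and 6.18 RPKM and a log2 fold change for T cells of -2.54 ± 0.60 (SE; edgeR adjusted p = 0.0122).

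Of the genes of the AHR pathway edgeR called none of 7 in T cells (DESeq2 called Ahrr in both comparisons with activated T cells, and edgeR without the filter on low counts called Cyp1b1 between co-culture and medium), and 2 targets of AHR were read in T cells only after the further day. Ahrr, the AHR repressor, had 0 and 0 reads in activated T cells, 17 and 25 in medium and 24 and 6 in co-culture (edgeR adjusted p = 0.0831 and 0.0778 against activated T cells). Cyp1a1, a classical target enzyme, had 0 and 0, 9 and 21, and 23 and 0 reads (adjusted p = 0.193 and 0.184 by edgeR). Tiparp, another target, was at 2.47 to 4.99 RPKM in all T cells. Cyp1b1 was at 0.854 and 1.25 RPKM in co-culture and at no more than 0.311 RPKM in the other T cells, beside 2.36 to 6.19 RPKM in keratinocytes, and was not called against medium (log2 fold change 4.46 ± 1.90, SE, edgeR adjusted p = 1.0).

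Tgfbr2, the TGF-β receptor, was at 4.73 and 9.27 RPKM in activated T cells, at 17.2 and 11.3 RPKM in medium and at 17.8 and 10.4 RPKM in co-culture. The later groups lay above activated T cells and overlapped with each other. With log2 fold changes of 1.14 ± 0.43 and 1.16 ± 0.43 (SE), and intervals of 0.15 to 2.13 and 0.17 to 2.16, the differences missed the threshold after adjustment (edgeR adjusted p = 0.149 and 0.123). Between co-culture and medium the log2 fold change was 0.02 ± 0.42 (SE), with an interval of -0.95 to 1.00.

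None of 14 tested genes of the TGF-β pathway was called by edgeR or DESeq2 with group as the only term in any comparison between T cells, and none had an unadjusted p under 0.05. With the serial number of the deposited tables (below or above 10) as a block Tgfb1 was called lower in both comparisons with activated T cells. Tgfbr1, the second receptor chain, was at 2.44 and 5.48 RPKM in activated T cells and at 5.07 to 5.92 RPKM in the later ones. Of the ligands, Tgfb1 was the main one in T cells, with 94.95 and 62.6 RPKM after activation, 52.3 and 28.5 RPKM in medium and 54.4 and 23.0 RPKM in co-culture (edgeR adjusted p = 0.288 and 0.242). Keratinocytes alone held 10.6 and 20.0 RPKM of Tgfb1 and 2.34 and 1.48 RPKM of Tgfb2, and co-cultured keratinocytes 0.759 and 0.420 RPKM of Tgfb2 (log2 fold change -1.63 ± 0.53, SE, edgeR adjusted p = 0.658). Tgfb3 was at no more than 0.623 RPKM in any library. The αv integrins activate latent TGF-β. Itgav and Itgb6 were keratinocyte transcripts, at 7.84 to 39.1 and 12.2 to 30.6 RPKM, and Itgav was at 1.97 to 3.85 RPKM in T cells, where Itgb6 had 0 to 7 reads. Itgb8 was at no more than 1.503 RPKM in all libraries.

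Over all members, T cells in medium differed from activated T cells without overlap in 6 of 8 tested genes (Itgae, S1pr1, Klf2, and Tgfbr2 higher, Cd69 and Ahr lower), and co-cultured T cells in 5 of 8 (without Klf2). For Ahr in medium the margin was only 0.961 against 0.965 RPKM. Among all genes tested 54.6% and 57.6% did not overlap in these comparisons, so that a lack of overlap does not set the members apart. Of the 8 members 3 had an unadjusted p under 0.05 in either comparison (Itgae, Cd69, and Tgfbr2). Of all 11863 genes 2969 in medium and 3415 in co-culture had one as well, so that this count does not set the members apart either. The median log2 fold change of the 8 members was 1.01 in medium and 0.78 in co-culture, beside -0.01 for all genes in both. With the block by serial number, chosen after the data had been seen, edgeR called 4 of the 8 in both comparisons. These were Itgae (adjusted p = 0.00278 in medium and 0.00720 in co-culture), Cd69 (0.00258 and 0.00466), S1pr1 (0.0293 and 0.0227), and Tgfbr2 (0.0470 and 0.0383), where 3089 and 3662 of all genes were called. Without the filter on low counts Klf2 was called in addition to these.

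In co-culture against medium no member was called by edgeR, none had an unadjusted p under 0.05, none was called by DESeq2, and none of the 8 was free of overlap, where 0.261% of all genes were called (31 higher, 0 lower), 409 genes had an unadjusted p under 0.05 and 27.4% did not overlap. The median log2 fold change of the members was -0.03, that of all genes -0.01. On simulated counts of this comparison edgeR recovered 0 of 50 genes changed by 1 log2 unit, 19 of 50 changed by 2 and 40 of 50 changed by 3. Small changes can thus be missed, but the genes were drawn at random, so that these rates are not those of the members. The intervals of Cd44, Tgfbr2, and Cd69 lie between -0.95 and 1.08 log2 units, while those of Itgae, S1pr1, Klf2, Ahr, and Itga1 are wider.

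**Figure D3:**
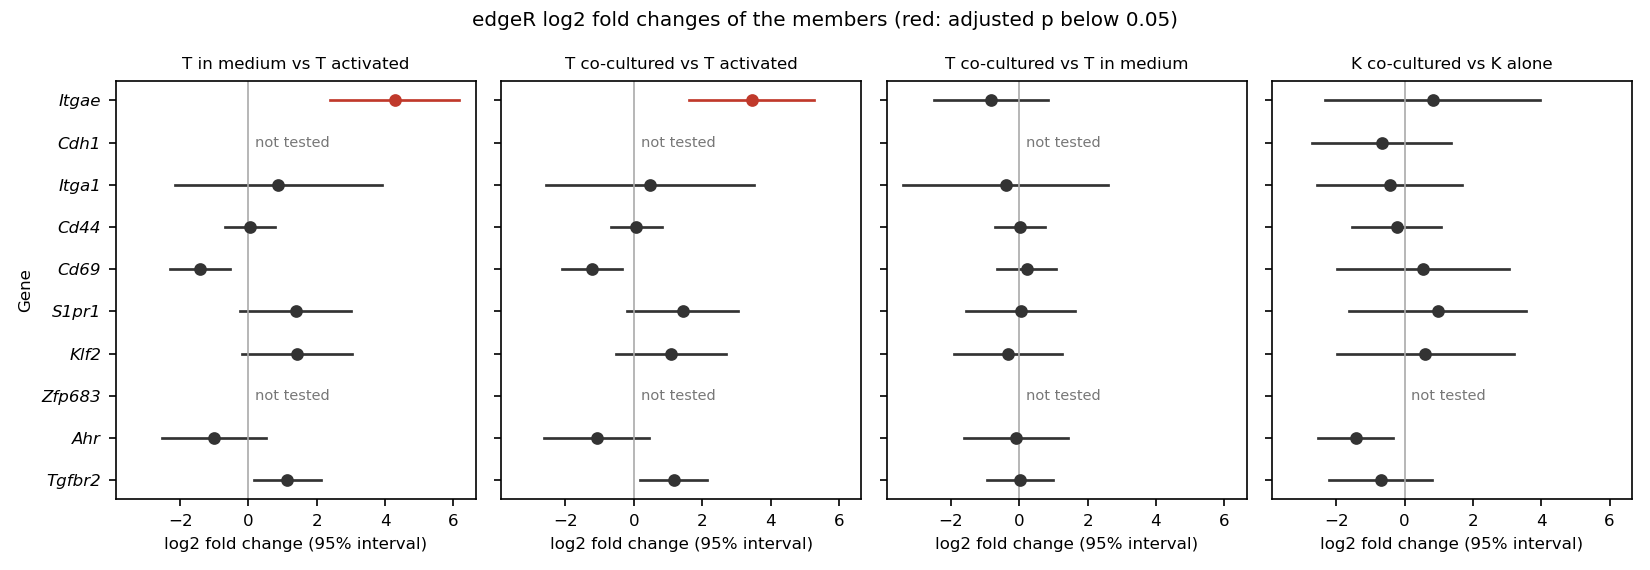
Log2 fold changes (horizontal) of the members with 95% intervals from edgeR in the 3 comparisons of T cells and in keratinocytes (K); red marks an adjusted p below 0.05, and genes under the filter on low counts are given as not tested. Itgae is red in both comparisons with activated T cells, with 4.27 and 3.46, and no member is red between co-culture and medium or in keratinocytes.

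Other genes known to differ between resident and circulating memory T cells are counted here by list. The lists were chosen with earlier results of these data known, so that their counts and medians are a description and no independent test. Of 28 tested genes known to be high in resident cells 0 rose and 6 fell in medium (median log2 fold change -0.52, all genes -0.01), beside 2.32% of all genes called higher and 4.22% lower. Those that fell most were Nr4a3 (-4.51 ± 0.54, SE, edgeR adjusted p = 0.0115), Xcl1 (-3.64 ± 0.47), and Nr4a2 (-2.96 ± 0.58, adjusted p = 0.0272). Nr4a2 and Nr4a3 are nuclear receptors induced by T cell receptor signals and Xcl1 is a chemokine of activated CD8+ T cells, so that these genes also mark recent stimulation. The others were Nr4a1, Fabp5, and Bhlhe40. After subtraction of the reads that go with Cd4 3 of the list were called lower, Xcl1, Bhlhe40, and Nr4a1, in medium as well as in co-culture. DESeq2, edgeR without the filter, and the block by serial number also called Vps37b of this list higher in medium, and Eomes of the list of circulating cells lower. Without the first library of activated T cells, or without either library of T cells in medium, 1 of them (Nr4a3) was called, and without the second library of activated T cells 3 were, and the median was then 0.09.

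Of 22 tested genes known to be high in circulating cells 4 rose and 0 fell in medium (median 1.17, with 2.32% of all genes called higher). Among them were Cmah (log2 fold change 2.31 ± 0.53, SE), Tcf7, a transcription factor of naive and memory T cells (2.25 ± 0.51), and Ly6c2 (2.16 ± 0.51), with edgeR adjusted p-values of 0.0426, 0.0401, and 0.0458. In co-culture 5 of the 22 rose (median 1.34, with 4.59% of all genes called higher), and Cmah (2.62) and Ly6c2 (2.47) were among those changed most. In medium DESeq2 called 9 of 22 higher, beside 862 of all 11863 genes. There edgeR called 10 of 23 without the filter and 12 of 22 with the block by serial number, where more of all genes were called as well. After subtraction of the reads that go with Cd4 it called 3 of 20. Without the first library of activated T cells 0 of these genes were called in medium and 2 in co-culture, and without either library of T cells in medium 0 in medium. Ccr7, the receptor that guides T cells to lymph nodes, was at 205 and 182 RPKM in activated T cells, at 278 and 383 RPKM in medium and after co-culture at 319 and 538 RPKM. It was not called by edgeR with group as the only term (adjusted p = 0.186 and 0.0636), while DESeq2 and edgeR without the filter called it higher in co-culture than in activated T cells, and the block by serial number in both comparisons.

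In co-culture 6 of the 28 genes high in resident cells fell against activated T cells (median -0.13, with 5.72% of all genes called lower and 4.59% higher). Those that fell most were Nr4a3 (-4.35), Xcl1 (-3.39), and Nr4a2 (-2.65), and 1 gene of the list rose. This was Vps37b (2.76 ± 0.39, SE, edgeR adjusted p = 0.00772), a sorting factor, with 18.4 and 17.2 RPKM in activated T cells, 41.3 and 41.7 RPKM in medium and 77.2 and 129 RPKM in co-culture. It was at 46.0 to 162 RPKM in keratinocyte libraries, and it was not called between co-culture and medium (log2 fold change 1.39 ± 0.37, SE, adjusted p = 0.591).

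Of the S1P axis beside S1pr1 edgeR called 1 of 7 tested genes, between co-cultured and activated T cells (DESeq2 also called Sphk1 lower in medium and Sgpp1 higher in co-culture, each against activated T cells). Spns2, the exporter of sphingosine 1-phosphate, was at 0.0184 and 0.214 RPKM in activated T cells, at 0 and 0.286 RPKM in medium and at 5.35 and 4.97 RPKM in co-culture (log2 fold change against activated T cells 5.65 ± 1.41, SE, edgeR adjusted p = 0.0430, and against medium 5.12 ± 1.37, adjusted p = 0.601). Keratinocytes alone held 93.0 and 24.9 RPKM, and the level in co-cultured T cells was 14.3% and 13.3% of the mean of co-cultured keratinocytes. The summed level of 14 keratinocyte markers was 249 and 140 RPKM in co-cultured T cells, 11.5 to 26.4 RPKM in the other T cells and 28368 and 28480 RPKM in co-cultured keratinocytes, and the median share over these markers was 0.614% and 0.227%. Some other keratinocyte genes, picked after the data had been seen, lay far above this share. In co-cultured T cells Sprr1a was at 429 and 306 RPKM (112% and 80.1% of the mean of co-cultured keratinocytes). Klk7 was at 56.3 and 51.1 RPKM (467% and 423%) and Spink5 at 8.58 and 11.6 RPKM. In the other T cells these genes were at no more than 0.144 RPKM. Krt1 and Krt10 were at no more than 1.06 RPKM in co-cultured T cells, but their means in co-cultured keratinocytes were only 0.674 and 0.373 RPKM. Krt10 also reached 1.21 RPKM in activated T cells, so that these 2 genes say nothing about keratinocyte RNA here. Since shares differed between genes, subtraction of the median share cannot settle the part of keratinocyte RNA in Spns2, Vps37b, and Cyp1b1. This part was not tested further. Of the 8 tested adhesion partners edgeR called none in T cells (1 to 3 had an unadjusted p under 0.05, and DESeq2 called Itgb7 in medium and Jup in co-culture, each against activated T cells). Itgb7 was called higher in both comparisons with activated T cells by edgeR without the filter, after subtraction of the reads that go with Cd4 and with the block by serial number. This block also called Ctnna1, another adhesion partner, lower in medium than in activated T cells. Between co-culture and medium edgeR called no gene of the 6 lists, whereas DESeq2 and the block by serial number called Spns2, and edgeR without the filter Spns2, Vps37b, and Cyp1b1. Of 86 tested genes of the lists 7 had an unadjusted p under 0.05, beside 409 of all 11863 genes. Among the genes high in resident cells these were 3 of 28 (median log2 fold change 0.20, all genes -0.01). Among those high in circulating cells there were 0 of 22 (median -0.04).

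**Figure D4:**
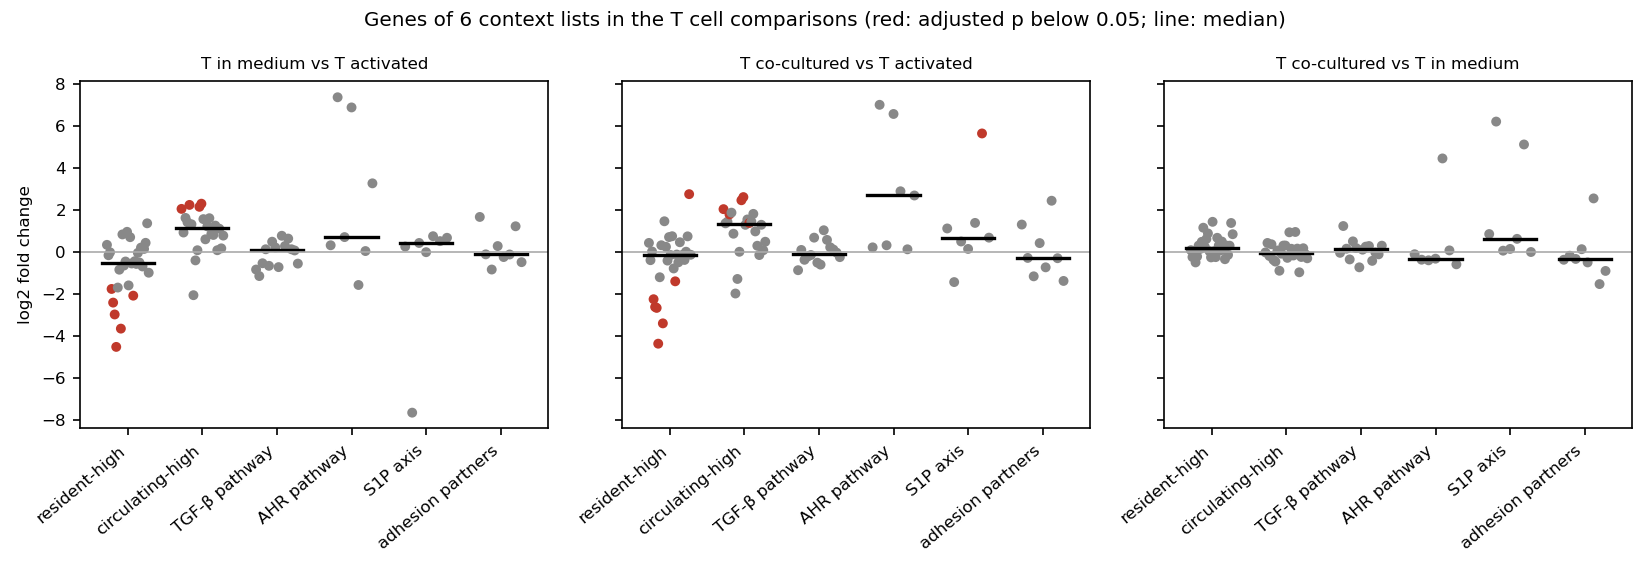
Log2 fold changes (vertical) of the tested genes of 6 lists, each gene a point, in the 3 comparisons of T cells; lines are medians and red marks an edgeR adjusted p below 0.05. In the comparisons with activated T cells the red points of the genes high in resident cells lie below 0, except for Vps37b in co-culture, those high in circulating cells lie above 0, and no point is red between co-culture and medium.

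In keratinocytes the members describe the other side of the contact. None of 9 tested members was called between co-cultured keratinocytes and keratinocytes alone, where edgeR called 0% of 12515 genes, 901 genes had an unadjusted p under 0.05, and DESeq2 called 186. On simulated counts edgeR recovered 3 of 50 genes changed by 2 log2 units here and 25 of 50 changed by 3.

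Ahr was the only member with an unadjusted p under 0.05 (0.0203). It was at 11.4 and 6.18 RPKM alone and at 3.81 and 2.40 RPKM after co-culture, without overlap, and the log2 fold change was -1.43 ± 0.42 (SE; edgeR adjusted p = 0.658). Itga1 was the other gene of the 9 without overlap, where 44.1% of all genes did not overlap. Matched by replicate number, co-cultured keratinocytes had 0.334 and 0.389 times the Ahr RPKM of keratinocytes alone. For Tgfbr2 these ratios were 0.597 and 0.573, with 57.3 and 24.9 RPKM alone and 34.2 and 14.3 RPKM after co-culture (log2 fold change -0.70 ± 0.58, SE, edgeR adjusted p = 0.708). For Cdh1 the ratios were 0.897 and 0.227 (log2 fold change -0.67 ± 0.78, SE, adjusted p = 0.771).

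The share of T cell markers was 6.39% and 25.01% in keratinocytes alone and 7.87% and 42.8% in co-cultured keratinocytes, relative to co-cultured T cells, so that the second library of co-cultured keratinocytes, which had the lowest Cdh1, Ahr, Tgfbr2, and Cd44, had also the most T cell RNA. Without the first library of co-cultured keratinocytes Cdh1 was called lower (log2 fold change -2.26, edgeR adjusted p = 0.0366), as 1 of 1164 genes called then. S1pr1, Klf2, Cd69, and Itgae in keratinocyte libraries, at 6.61 to 47.7, 6.33 to 35.9, 1.52 to 6.86, and 0.610 to 5.17 RPKM, went with Cd4 as described above, and in both groups the second library was the higher one. For no member was a difference called between T cells (co-culture against medium) and keratinocytes in the change with co-culture (edgeR interaction over 13202 genes, adjusted p of at least 0.747, where 76 genes were called and 932 had an unadjusted p under 0.05).

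Between cell types, before any contact, 5 of 9 tested members were called, where 35.5% of all 13394 genes were called (13% higher and 22.5% lower in T cells). The groups did not overlap for 6 of the 9, beside 73.8% of all genes. Cdh1, Cd44, Ahr, and Tgfbr2 (log2 fold change -2.68 ± 0.57, SE, edgeR adjusted p = 0.00739) were lower in activated T cells than in keratinocytes alone, and Cd69 (4.14 ± 0.83, adjusted p = 0.00578) was higher. Itgae, S1pr1, Klf2, and Itga1 were not called. Without the first library of either group only Cdh1 and Cd69 were called.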

How the data were processed

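RNA of 10 libraries, 2 in each of 5 groups, was prepared with the NEBnext Ultra II kit after selection of poly(A) RNA. The authors sequenced single reads on a HiSeq2500, and CLC Genomics Workbench served for their alignment to GRCm38. They deposited 1 table per library with counts of total exon reads, of uniquely mapped exon reads (78.2% to 87.2% of all exon reads) and of intron reads, without normalization, and RPKM values in which exon reads were scaled to exon length and mapped reads. The annotation release, the counting options and a strand setting are not given in the sources used here. Groups were taken from the labels. The libraries of T cells in medium and in co-culture have no replicate number in the labels and were named in the order of their accessions. Libraries of a group were separate, with a mean chi-square per degree of freedom of 89.1 to 199 between their counts.

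Exon reads were fitted by edgeR 4.0.16 under R 4.3.3 (filter filterByExpr, scaling TMM, glmQLFit, glmQLFTest, group as the only term) and p-values adjusted over all genes fitted after Benjamini and Hochberg, with calls at an adjusted p under 0.05. The 6 T cell libraries, the 4 keratinocyte libraries, and all 10 (for T cells against keratinocytes) were fitted apart. Comparisons with activated T cells share these libraries. With 2 libraries in each group an exact permutation test cannot give a two-sided p under 0.333, and none was used. Standard errors were obtained as the absolute log2 fold change over the root of F, and 95% intervals use the degrees of freedom of the fit. The RPKM values were used for levels only. The scripts were tested on simulated counts of 50 genes per size of change.

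The members and the 6 lists (genes high in resident cells, genes high in circulating cells, TGF-β pathway, AHR pathway, S1P axis, adhesion partners) were chosen from general knowledge, with earlier results of these data known. Genes named are all members, the list genes called between co-culture and medium, up to 3 of each list with the largest change in the other T cell comparisons, and the partners, ligands and targets Itgb7, Itgb1, Tgfb1, Tgfb2, Tgfb3, Tgfbr1, Itgav, Itgb6, Itgb8, Cyp1a1, Cyp1b1, Ahrr, and Tiparp. Others, such as Ccr7, were named after their values had been seen. For 1 gene of the lists, which is included in the counts and medians, no values are reported here. Itgb1 was at 56.7 to 113 RPKM over all libraries and not called in T cells. Alternatives were DESeq2 1.42.0, size factors by median of ratios, no filter, uniquely mapped reads, other sets of libraries in the fit, the replicate number as a block, subtraction of the RNA of the other cell type and each library left out in turn. Subtraction of the reads that go with Cd4 (per gene the slope on Cd4 RPKM over the 4 keratinocyte libraries) and a block by the serial number of the deposited tables (below or above 10) were chosen after the data had been seen.

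RefSeq upstream sequences were found for 4 of the 10 members (Itga1, Cd44, Klf2, and Tgfbr2), and not for Itgae, Cdh1, Cd69, S1pr1, Zfp683, and Ahr. Of the other markers checked, 5 B cell genes summed to 44.7 to 92.5 RPKM in T cells in medium and to 16.6 to 27.3 RPKM in co-culture, and those of fibroblasts and melanocytes to at most 5.67 RPKM in any T cell library. Markers of myeloid cells summed to 15.0 to 68.6 RPKM in all libraries. Summaries and figures were made in Python 3.11.15 (pandas 2.3.3, numpy 2.4.6, matplotlib 3.10.9).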

Additional observations from a re-analysis of the deposited data

Results flagged for a closer look

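Reads on introns, which were not used for the fold changes, were higher in all 4 libraries of T cells kept for a further day than in both libraries of activated T cells for 2 members. For Itgae the lowest of these libraries held 69 intron reads, against 5 and 6 in activated T cells. Intron reads were 1.33% and 4.25% of its exon reads in medium, 1.604% and 11.2% in co-culture and 4.13% and 1.52% in activated T cells, so that the second library of co-cultured T cells, which had the lowest Itgae level of the 4, had the highest share. In keratinocyte libraries the share was 2.27% to 9.17%. Haspin lies within Itgae on the other strand, and its part in these intron reads was not tested. For Klf2 the lowest library held 10 intron reads, against 1 and 0. This was not tested, and since no group has more than 2 libraries, single libraries could not be tested as outliers.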

How the results depend on the processing

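The absence of calls among members between co-culture and medium held under all alternatives and with each library left out. Against activated T cells, where 1 member was called in each comparison, the number called rose to 2 with DESeq2, to 5 without the filter, to 2 after subtraction of the reads that go with Cd4 and to 4 with the block by serial number, the same number in both comparisons under each of these, and it ran from 0 to 3 with a library left out in either. The direction of Itgae, Cd69, S1pr1, Klf2, and Tgfbr2 was kept throughout in these comparisons. Among keratinocytes 0 to 1 members were called with a library left out, and 2 to 5 between activated T cells and keratinocytes alone. The cause of these changes was not tested, apart from the smaller number of libraries.

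Signs were not stable where the values were small. Between co-culture and medium the log2 fold change with a library left out ran from -1.21 to 1.44 for Itga1, from -0.15 to 0.18 for Cd44, from -0.14 to 0.65 for Cd69, from -0.12 to 0.21 for S1pr1, from -0.53 to 0.50 for Ahr and from -0.29 to 0.28 for Tgfbr2, and with the block by serial number it turned to 0.12 for Itga1 and 0.0087 for Ahr. In medium against activated T cells it ran from -0.97 to 1.88 for Itga1 and from -0.19 to 0.37 for Cd44, and in co-culture from -0.11 to 1.46 and from -0.17 to 0.38. In keratinocytes the ranges were -1.51 to 2.42 for Itgae, -2.26 to 0.042 for Cdh1, -0.89 to 0.18 for Cd44, -1.04 to 1.61 for Cd69, -0.73 to 2.28 for S1pr1 and -1.11 to 1.93 for Klf2, and after subtraction of the reads that go with Cd4 Cd69 was at -1.17 and Klf2 at -2.05. Between activated T cells and keratinocytes alone they were -0.30 to 2.63 for Itgae, -0.76 to 2.42 for S1pr1 and -0.66 to 2.50 for Klf2.

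Replicate numbers are shared by both keratinocyte groups and activated T cells, and the labels do not say that they mark a shared animal or day. The deviations of same-numbered keratinocyte libraries correlated with r = 0.447 over 13394 genes. Both second keratinocyte libraries also had the higher share of T cell markers, so that this value cannot show a shared animal or day. Between keratinocyte and T cell groups r was 0.100 to 0.257. The split by serial number coincides with the replicate numbers, and over its libraries the deviations of the T cell groups correlated with r = 0.172 to 0.247. With the replicate number as a block 0 of 9 members were called in keratinocytes (2 of all genes, in place of 0), where Ahr was at -1.40 (edgeR adjusted p = 0.138), and 5 of 9 between activated T cells and keratinocytes alone, so that the block changed no call of a member. Over all genes 31 calls between co-culture and medium became 87 with DESeq2, 141 without the filter, 65 with the block by serial number and 3 after subtraction of the reads that go with Cd4, and ran from 16 to 52 with a library left out. In medium against activated T cells 776 became 1948 with DESeq2, 1945 without the filter, 493 after the subtraction and 3089 with the block by serial number (24 to 1067 with a library left out), and in co-culture 1222 became 2369, 2425, 862, and 3662 (266 to 1093). In keratinocytes 0 became 186, 11, and 16 under the first 3 of these, and 4 with all libraries in the fit, and it ran from 0 to 1164 with a library left out. At this depth and with 2 libraries in each group, changes of 1 log2 unit were hardly found on simulated counts.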
